A study of Mus musculus with 12 samples.

Results

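A set of 10 genes of the basic leucine zipper (bZIP) class were followed: the Fos family genes Fos, Fosl1 and Fosl2, the Jun family genes Jun, Junb and Jund, the small Maf genes Maff, Mafg and Mafk, and Atf3. They were taken by their gene name in the count table, which lists 54532 genes, 48 of them annotated there as bZIP factors. All 10 members passed the filter on low counts and were among the 13571 genes tested. The samples were cultured mouse keratinocytes labelled WT DP-BirA(1-584), in which residues 1 to 584 of desmoplakin, a linker protein of the desmosome, are joined to the biotin ligase BirA. All cells received calcium, 2 µg/mL doxycycline to switch the fusion protein on and a 16 h pulse of biotin, and were either wounded or left alone. The translating fraction of a sucrose gradient was then passed over neutravidin. As in the labels, cortical stands for the RNA that the resin held and total for the RNA that stayed in the depleted flow-through. Each fraction of unwounded and of wounded cells was sequenced in 3 libraries, which makes 4 groups and 12 libraries. Cells without the fusion protein, without biotin or at other times after wounding were not analysed here. The labels call the 3 libraries of a group biological replicates without saying that they came from separate cultures, so p-values measure the spread between these libraries.

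AP-1 is a dimeric transcription factor made of a Jun protein paired with a Fos protein, another Jun protein or an ATF protein, and it binds a short palindromic DNA element. Several of its genes are immediate early genes: growth factors, stress and wounding switch them on through MAP kinases, and their mRNAs are short lived. The small Maf proteins carry a bZIP domain but no transactivation domain, and they act as obligate partners of the cap'n'collar (CNC) factors such as NRF2 and of the Bach repressors, or as repressing homodimers. In the epidermis AP-1 is known for its part in keratinocyte differentiation, inflammation and wound repair.

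Total counts ran from 8980013 to 23457548 per library. Wounded total replicate 1 stood apart: it had counts for 13117 genes, against at least 14393 in each of the other 11 libraries, so results that change without it are given both ways. The 8 keratinocyte markers were all detected, led by Krt5 and Krt14, with Krt1 at no more than 44 counts in any library. Their summed level was 9930 to 11000 CPM in unwounded total, 14700 to 14800 in unwounded cortical, 16700 to 19300 in wounded total and 20200 to 20600 in wounded cortical libraries. CPM are counts scaled to library size with TMM factors. Fibroblast, endothelial and melanocyte markers summed to at most 6.47 CPM in any library, with Dcn, Thy1, Cdh5 and Tyr at 0 counts. The sum over 7 immune cell markers was 20.9 to 24.9 CPM in unwounded total and 43.2 to 58.7 CPM in wounded total libraries. It was 17.8 to 20.9 CPM in unwounded cortical and 32.9 to 38.6 CPM in wounded cortical libraries. It came mainly from Cd68, a lysosomal protein, while Adgre1, Lyz2 and Itgam were at 0 counts in all libraries. The part of these marker levels in the results below was not tested.

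The proximal promoters are shown for a short element found in 4 members: 3 of the 5 that changed on wounding, and Atf3, which did not pass. Of the 3, Maff rose while Fos and Mafg fell. The element was singled out with these results known, and a link to wounding was not tested. RefSeq promoters (GRCm38.p6, 250 bases before to 50 after a listed start) were held for 9 members, all but Fosl1, with 3 listed starts for Maff. The core of the cAMP response element, TGACGT on either strand, occurred in the promoters of Fos, Atf3, Maff and Mafg, and in 7.51% of all 32851 promoters of that length. The capitals below mark it, read as ACGTCA in Atf3. Maff holds the full palindrome TGACGTCA, which was found in 1.79% of promoters and contains the core on both strands. Each window is written 5′ to 3′ along the gene, from 120 bases before the listed start to 30 from it. The windows of Junb and Fosl2, which also changed on wounding, are given beside them and hold no core.
Fos, chr12:85473770-85473919, plus strand: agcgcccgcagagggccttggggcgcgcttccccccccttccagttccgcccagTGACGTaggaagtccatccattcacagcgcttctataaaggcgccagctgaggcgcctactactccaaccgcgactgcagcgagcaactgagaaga
Maff, chr15:79347400-79347549, plus strand: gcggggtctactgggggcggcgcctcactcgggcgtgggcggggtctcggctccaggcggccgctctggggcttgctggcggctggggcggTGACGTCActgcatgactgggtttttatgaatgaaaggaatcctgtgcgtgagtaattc
Mafg, chr11:120633518-120633667, minus strand: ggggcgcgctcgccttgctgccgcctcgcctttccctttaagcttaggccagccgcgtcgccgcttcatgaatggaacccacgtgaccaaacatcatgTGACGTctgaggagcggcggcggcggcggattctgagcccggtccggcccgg
Atf3, chr1:191183304-191183453, minus strand: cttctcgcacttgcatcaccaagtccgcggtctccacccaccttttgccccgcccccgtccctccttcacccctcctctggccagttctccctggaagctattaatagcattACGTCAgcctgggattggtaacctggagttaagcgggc
Junb, chr8:84978719-84978868, minus strand: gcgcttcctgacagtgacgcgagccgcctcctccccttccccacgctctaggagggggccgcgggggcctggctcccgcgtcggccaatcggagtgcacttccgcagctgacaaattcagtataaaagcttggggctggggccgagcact
Fosl2, chr5:32136352-32136501, plus strand: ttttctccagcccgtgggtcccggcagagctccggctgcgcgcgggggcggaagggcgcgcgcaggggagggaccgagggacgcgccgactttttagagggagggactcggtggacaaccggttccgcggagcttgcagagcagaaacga
The core began 66 bases before the listed start in Fos, 29 in Maff, 22 in Mafg and 8 in Atf3. The AP-1 site TGANTCA, found in 7.81% of all promoters, was in none of the 11 promoters of the 9 members, and the CArG box, found in 1.63%, was in none either. Sites further from the listed starts were not searched, so these genes may hold such elements elsewhere. The promoter held for Jund, chr8:70697489-70697788, also ends before the annotated gene, which starts at 70698949. Among the printed windows, that of Junb lies just outside the annotated gene (chr8:84974484-84978718). Those of Atf3, Fosl2 and Maff lie wholly within the annotated genes, so listed and annotated starts differ there. The antioxidant response element core TGACNNNGC, on either strand, was present in a promoter of Maff, Mafg and Mafk and in 12.4% of all promoters. For Maff it lay in the promoter of another listed start than the window printed. TATAAA was found in Fos and, at the listed start itself, in Junb, against 13.6% of all promoters. These are matches of letters only, and nothing about binding was measured.

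In the total fraction, wounding went with more Maff, Junb and Fosl2 mRNA and less Mafg and Fos mRNA. Maff changed most, 4.91-fold. The other 5 members, Fosl1, Jun, Jund, Atf3 and Mafk, did not pass the test, which was edgeR's quasi-likelihood test with Benjamini-Hochberg adjustment over all genes at a threshold of 0.05. The count of 5 of 10 members compares with 15.6% of all genes tested: 3 members were higher, against 8.39% of all genes, and 2 lower, against 7.2%. Groups without overlap were found for these same 5, against 14.5% of all genes higher and 17.6% lower. The median log2 fold change of the 10 members was 0, against -0.03 over all genes. In these bulk libraries, fewer cells that express a gene and less of its RNA per cell cannot be told apart. Only RNA of the translating fraction was sequenced. A change in the amount of an mRNA and a change in its translated share therefore cannot be told apart either.

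**Figure D1:**
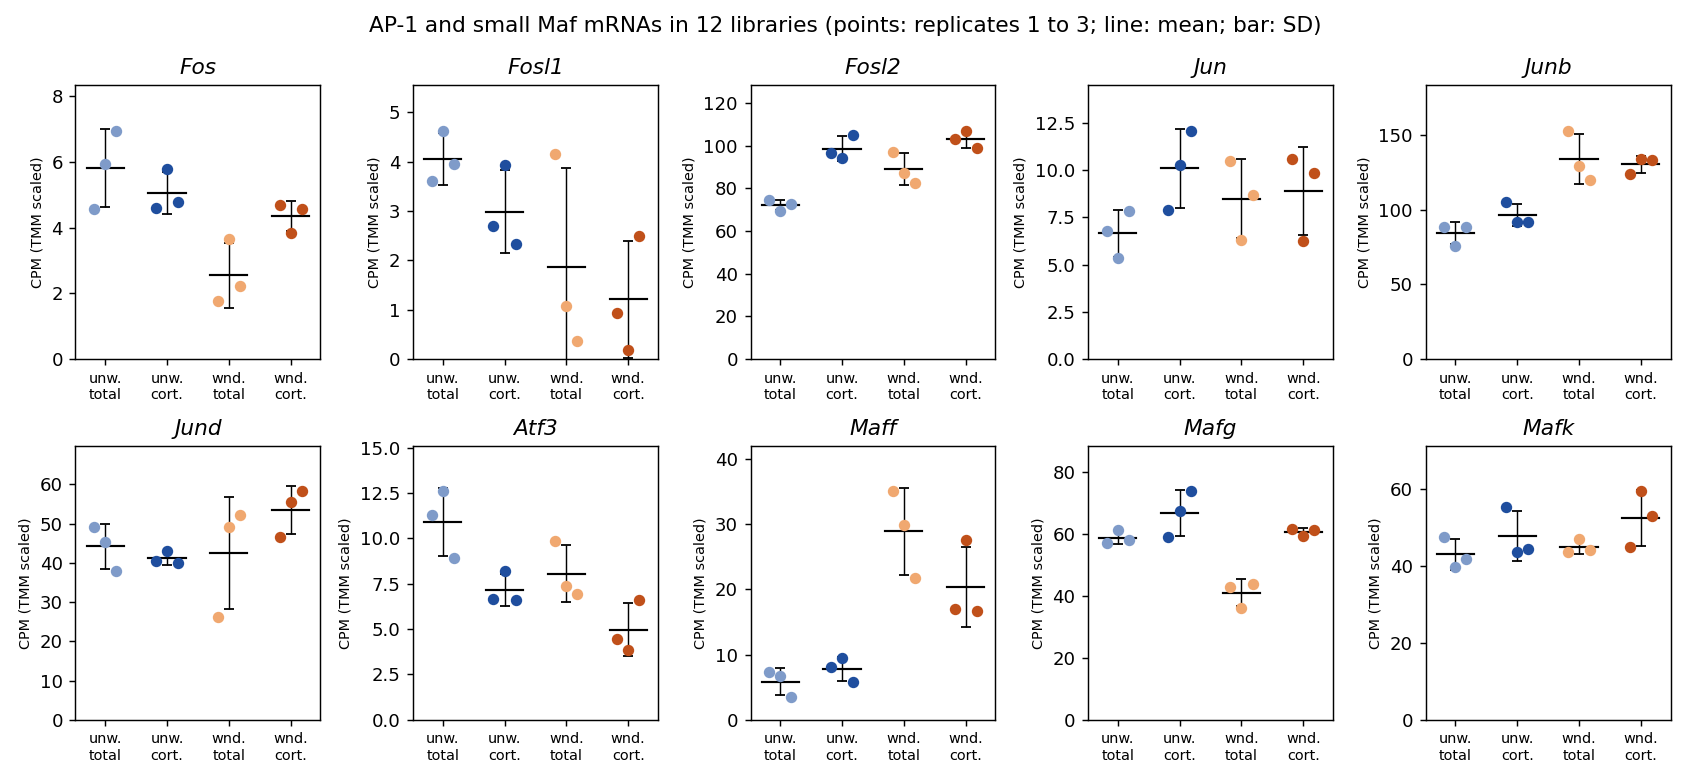
CPM (vertical axis, TMM scaled) of each member in the 4 groups, with 1 point per library, a line at the mean of 3 libraries and a bar of 1 SD. Maff in the wounded total libraries, 21.8 to 35 CPM, lies above all 6 unwounded libraries, and the lowest wounded total point of Jund, 26.2 CPM, is replicate 1, the library that stood apart. The lower SD bars of Fosl1 in wounded cells run to the axis at 0 and are cut there in the total group.

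Maff (chr15:79346621-79359076, plus strand), a small Maf gene known to be inducible by stress and cytokines, had 7.33, 6.72 and 3.48 CPM in the 3 unwounded total libraries. It had 35, 29.8 and 21.8 CPM in the wounded total libraries. The lowest wounded library was thus far above the highest unwounded one. The log2 fold change was 2.3 (SE 0.29, adjusted p = 8.61e-05, edgeR). It remained past the threshold in all 24 alternative fits, between 1.93 and 2.5.

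Mafg (chr11:120625117-120633600, minus strand), a widely expressed small Maf gene, moved the opposite way. It had 57, 61.1 and 58 CPM in unwounded total libraries and 42.8, 35.9 and 43.9 CPM in wounded total libraries, without overlap. The fall was 0.52 on the log2 scale, a 1.44-fold lower level (log2 fold change -0.52, SE 0.11, adjusted p = 0.00507, edgeR), and it passed in all 24 alternatives. Its exons share 124 bases with Sirt7 on the same strand, a gene with a log2 fold change of -0.15 (adjusted p = 0.399). Mafk (chr5:139791513-139802653, plus strand), the third small Maf gene, stayed within 39.9 to 47.6 CPM in unwounded and 43.7 to 47.2 CPM in wounded total libraries, with a log2 fold change of 0.06 (SE 0.13, adjusted p = 0.821). Its exons share 169 bases with Tmem184a on the opposite strand, a gene with 238 to 989 counts per library. The part of Tmem184a in the Mafk count was not tested.

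The 3 small Maf mRNAs code for short proteins of 156 (Maff and Mafk) and 162 (Mafg) residues, and their make-up shifted with the wound. Per length, in the deposited FPKM, Maff took 9.37% ± 2.94 (SD, n = 3) of the small Maf total in unwounded total libraries and 36.8% ± 5.76 in wounded total libraries. Mafg took 44.1% ± 3.27 and 24.5% ± 3.62, and Mafk 46.5% ± 2.93 and 38.7% ± 3.51. The ranges of the Maff share did not overlap, 5.98% to 11.2% against 30.5% to 41.7%. The summed FPKM of the family was 23.3 ± 1.35 before and 30 ± 2.37 after wounding, with Maff gaining more FPKM than Mafg lost. In the cortical fraction the Maff share was 11% ± 2.62 in unwounded and 24.1% ± 4.44 in wounded libraries.

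**Figure D2:**
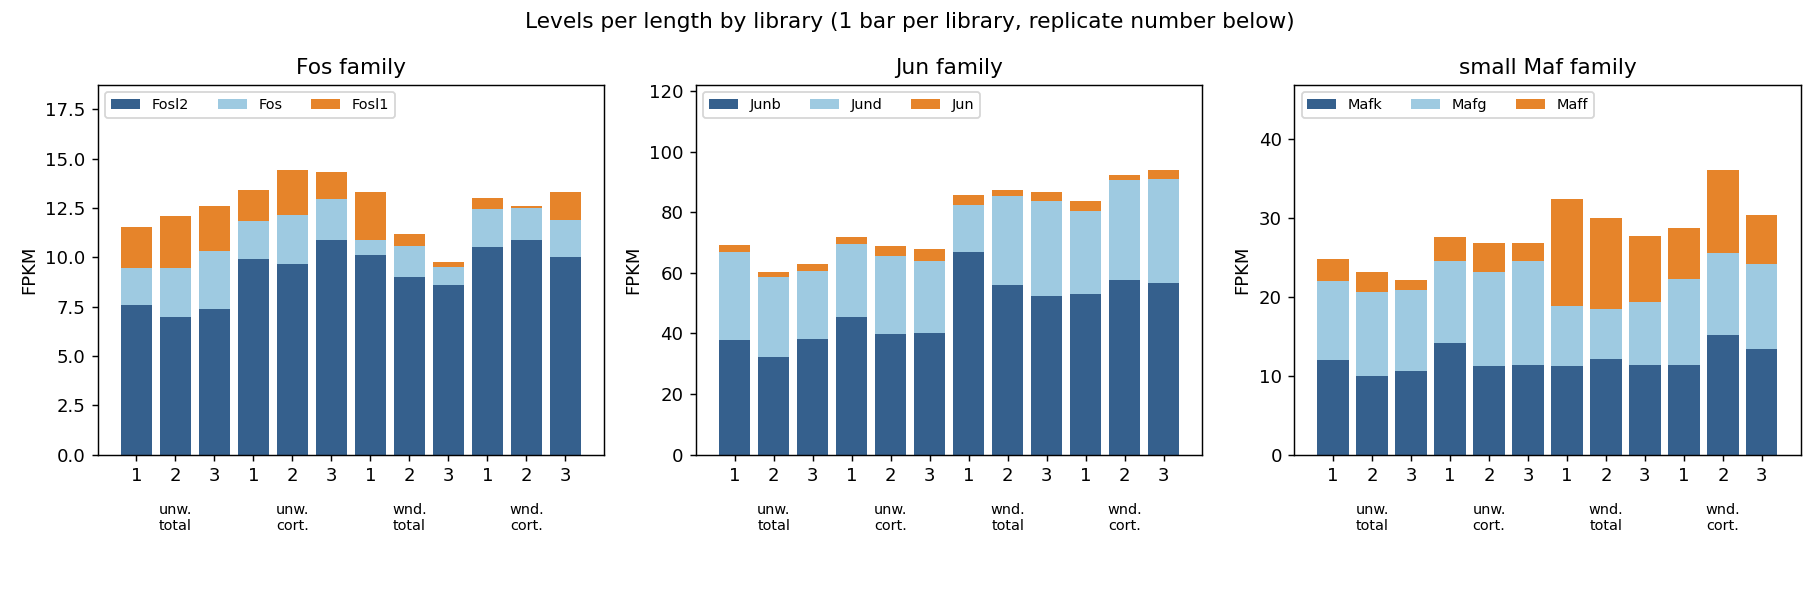
Stacked FPKM (vertical axis, deposited values) of the Fos, Jun and small Maf genes, 1 bar per library in the order of the 4 groups with replicate numbers below. The Maff segment measures 8.44 to 13.5 FPKM in the wounded total bars and at most 3.63 FPKM in the unwounded ones. Junb is the largest segment of the Jun family in every library, and Fosl2 is the largest of the Fos family in every library.

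Among the Jun genes, Junb (chr8:84974484-84978718, minus strand), a Jun protein known as a weaker activator than c-Jun that restrains keratinocyte proliferation and inflammation, was both the most abundant per length and the Jun gene that rose. It had 88.5, 75.9 and 88.7 CPM in unwounded total and 153, 129 and 120 CPM in wounded total libraries. No wounded library fell within the unwounded range. The log2 fold change was 0.67 (SE 0.11, adjusted p = 7.94e-04, edgeR), or 1.59-fold, and it passed in all 24 alternatives. The libraries do not keep strand and Junb shares 173 exon bases with Prdx2 on the opposite strand. Prdx2, a peroxiredoxin with 2743 to 9893 counts per library, had a log2 fold change of 0.39 (adjusted p = 0.021), and its part in the Junb count was not tested.

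Jund (chr8:70698949-70700616, plus strand), known as the Jun gene expressed in resting cells, had 49.2, 45.3 and 38 CPM in unwounded total libraries. In wounded total libraries it had 26.2, 49.2 and 52.1 CPM, the low value being replicate 1. Its log2 fold change was -0.06 (SE 0.19, adjusted p = 0.889), and 0.2 without that library (adjusted p = 0.299). Jun (chr4:95049034-95052222, minus strand), which encodes c-Jun, the partner of Fos in classical AP-1, was a minor member of its family, with 5.36 to 7.83 CPM unwounded and 6.29 to 10.5 CPM wounded in the total fraction. The groups overlapped (log2 fold change 0.35, SE 0.28, adjusted p = 0.443). Jun shares 232 exon bases with Junos on the opposite strand, which had 0 to 32 counts per library. In each of the 3 Jun genes the transcript with the longest coding sequence has a single exon. Junb made up 56.2% ± 3.72 of the family FPKM in unwounded total and 67.5% ± 9.14 in wounded total libraries, and Jun 3.2% ± 0.586 and 3.09% ± 0.801.

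In the Fos family the change was uneven. Fos (chr12:85473890-85477273, plus strand), the classical immediate early gene, had 4.56, 5.93 and 6.95 CPM in unwounded total libraries and 1.78, 3.65 and 2.21 CPM in wounded total libraries, from 30 to 118 counts. All 3 wounded values lay below all 3 unwounded ones. The log2 fold change was -1.18 (SE 0.34, adjusted p = 0.0254, edgeR), a 2.27-fold lower level. The sign held in all 24 alternatives, but the call was lost in 5 of them: with voom quality weights (-0.7, adjusted p = 0.0595), with only the groups compared, and without unwounded total replicate 2 (adjusted p = 0.0695), unwounded total replicate 3 (0.101) or wounded total replicate 3 (0.0873).

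Fosl2 (chr5:32135801-32157842, plus strand), which encodes Fra-2, a Fos-related protein without a strong transactivation domain, had 74.5, 69.5 and 72.5 CPM in unwounded total libraries. It had 97.1, 87.2 and 82.6 CPM in wounded total libraries, all above the unwounded range. The rise was 1.23-fold (log2 fold change 0.3, SE 0.1, adjusted p = 0.0433, edgeR). This call was close to the threshold: the sign held throughout, but 14 of 24 alternatives put the adjusted p above 0.05, up to 0.288 with library size scaling. Among the 14 were 10 of the 12 fits with a library left out, with adjusted p from 0.053 to 0.15. Without wounded total replicate 1 the log2 fold change of Fosl2 was 0.23 (adjusted p = 0.0768).

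Fosl1 (chr19:5447703-5455945, plus strand), which encodes Fra-1, known from migrating and invasive cells, had 3.6, 4.63 and 3.95 CPM in unwounded total libraries. In wounded total libraries it had 4.15, 1.07 and 0.368 CPM, from 70, 19 and 6 counts. The library that stood apart was the high one, and the other 2 were below all unwounded libraries. Counting error alone gives 0.642 to 1.67 CPM for replicate 2 and 0.135 to 0.801 CPM for replicate 3 (exact 95% Poisson intervals). The log2 fold change was -1.12 (SE 0.75, adjusted p = 0.359) with all libraries and -2.48 (adjusted p = 0.0144) without wounded total replicate 1. With voom quality weights it was -2.11 (adjusted p = 0.00424). Fosl1 shares 1163 exon bases with Ccdc85b on the opposite strand, which had 451 to 1482 counts, so its low counts carry this added uncertainty.

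Fosl2 took 59.9% ± 4.11 of the FPKM of the 4 Fos genes (Fosb included) in unwounded total libraries and 81% ± 5.59 in wounded total libraries. Fos took 19.8% ± 3.29 and 9.69% ± 4.04, and Fosl1 19.1% ± 2.2 and 8.72% ± 8.56. The summed FPKM was 12.2 ± 0.531 and 11.5 ± 1.7, a difference within the spread of the wounded libraries. Atf3 (chr1:191170296-191218039, minus strand), a stress-induced factor that pairs with Jun proteins, had 8.9 to 12.6 CPM unwounded and 6.93 to 9.85 CPM wounded in the total fraction. The groups overlapped, with a log2 fold change of -0.45 (SE 0.26, adjusted p = 0.278), and -0.59 with voom quality weights, which put it past the threshold (adjusted p = 0.0169).

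In the cortical fraction 1 of 10 members passed the test for wounding, against 2.48% of all genes, and that member was Maff. It had 8.05, 9.45 and 5.8 CPM in unwounded cortical and 17, 27.5 and 16.6 CPM in wounded cortical libraries. The groups did not overlap, and the middle wounded library stood above the other 2. The log2 fold change was 1.38 (SE 0.28, adjusted p = 0.0161, edgeR), or 2.6-fold. The call was lost without unwounded cortical replicate 1 (1.4, adjusted p = 0.0669), without unwounded cortical replicate 3 (1.22, 0.0888), without wounded cortical replicate 2 (1.1, 0.0929) and on log2 of FPKM plus 0.1 (1.33, 0.0504).

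Junb lay at the threshold in the cortical fraction. Its 105, 91.9 and 92.1 CPM in unwounded and 124, 134 and 133 CPM in wounded cortical libraries did not overlap. The log2 fold change was 0.43 (SE 0.11, adjusted p = 0.0501), and 6 of 24 alternatives put it past the threshold, among them DESeq2 (adjusted p = 0.0195) and the fit without wounded total replicate 1 (0.00404). Jund, with 39.9 to 43 CPM in unwounded and 46.5 to 58.2 CPM in wounded cortical libraries, also did not overlap (log2 fold change 0.38, SE 0.19, adjusted p = 0.332), and passed without wounded total replicate 1 (0.38, adjusted p = 0.044). Groups without overlap and higher after wounding were found for these 3 of 10 members, against 15.4% of all genes.

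The other cortical values did not separate the groups. Fos had 4.61, 5.77 and 4.78 CPM in unwounded and 4.69, 3.84 and 4.56 CPM in wounded cortical libraries, a log2 fold change of -0.21 (SE 0.33, adjusted p = 0.817). Fosl1 ran from 2.34 to 3.93 CPM in unwounded and from 0.189 to 2.5 CPM in wounded cortical libraries (-1.29, SE 0.77, adjusted p = 0.424). Fosl2 (0.06), Jun (-0.17), Mafg (-0.13), Mafk (0.13) and Atf3 (-0.52) had adjusted p from 0.328 to 0.823 and overlapped between groups.

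**Figure D3:**
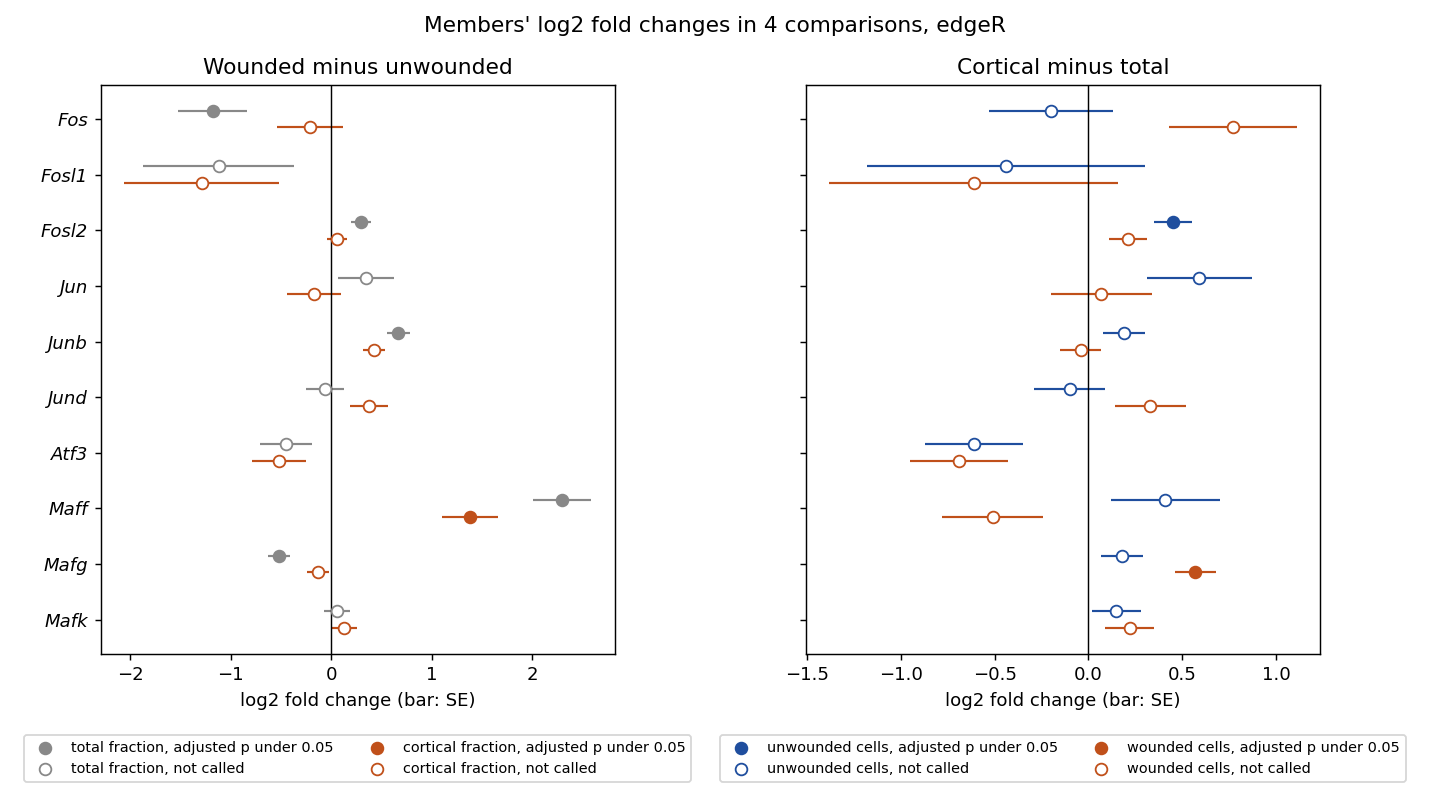
Log2 fold changes of the 10 members (horizontal axis, bars of 1 SE, edgeR) for wounded minus unwounded in each fraction (left) and cortical minus total in each condition (right). Filled points passed an adjusted p of 0.05: 5 in the total fraction and Maff alone in the cortical fraction on the left, Fosl2 in unwounded and Mafg in wounded cells on the right.

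Whether the wound response itself differed between the fractions was tested as an interaction, the cortical response minus the total response. None of the 10 members passed, against 0.125% of all genes (17 genes, 0.0221% higher and 0.103% lower). Before adjustment 2 members were past 0.05, Maff and Mafg. The interaction estimate of Maff was -0.92 (SE 0.4, adjusted p = 0.512, edgeR), and that of Mafg was 0.39 (SE 0.16, adjusted p = 0.472, edgeR). Voom with library quality weights gave 1 member, Mafg (0.51, adjusted p = 0.0343), and DESeq2 and limma-trend gave 0. For Fos the estimate was 0.98 (SE 0.47, adjusted p = 0.567). The estimates of the other 7 ran from -0.52 for Jun to 0.43 for Jund, with -0.24 for Fosl2, -0.23 for Junb, -0.17 for Fosl1, -0.08 for Atf3 and 0.07 for Mafk, and adjusted p from 0.654 to 0.978. A difference in wound response between the fractions was therefore not shown for any member by edgeR, including those that passed in 1 fraction only.

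The comparison of cortical with total libraries asked which translated mRNAs were captured more or less near the desmoplakin fragment. In unwounded cells 1 of 10 members passed, against 14.2% of all genes (6.62% higher and 7.59% lower in the cortical fraction). This was Fosl2, with 96.4, 94.1 and 105 CPM in cortical libraries against 74.5, 69.5 and 72.5 CPM in total libraries. All cortical values were above all total values, and the log2 fold change was 0.45 (SE 0.1, adjusted p = 0.00543, edgeR), or 1.36-fold. With a trend on gene length removed from each library it was 0.28 (adjusted p = 0.0653), and Fosl2, with 9680 bases of merged exons, is the longest of the 10 members. Jun (7.9 to 12.1 CPM cortical, 5.36 to 7.83 CPM total) and Junb (91.9 to 105 and 75.9 to 88.7) were higher without overlap but did not pass, with log2 fold changes of 0.59 (adjusted p = 0.183) and 0.19 (adjusted p = 0.301). Atf3 was lower without overlap, 6.61 to 8.19 CPM cortical against 8.9 to 12.6 CPM total (-0.61, SE 0.26, adjusted p = 0.137). The other members overlapped between the fractions: Fos (-0.2), Fosl1 (-0.44), Jund (-0.1), Maff (0.41), Mafg (0.18) and Mafk (0.15) had adjusted p from 0.354 to 0.82.

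In wounded cells 1 of 10 members passed, against 15.7% of all genes (7.62% higher and 8.03% lower in the cortical fraction). This was Mafg, with 61.6, 59.1 and 61.1 CPM in cortical libraries and 42.8, 35.9 and 43.9 CPM in total libraries. The groups were far apart, and the log2 fold change was 0.57 (SE 0.11, adjusted p = 0.00331, edgeR), or 1.48-fold, past the threshold in all 24 alternatives. In unwounded cells the same ratio was 0.18 (SE 0.11, adjusted p = 0.354), from 58.9, 67.2 and 73.6 CPM in cortical libraries. Its 9 values outside the wounded total group ran from 57 to 73.6 CPM, against 35.9 to 43.9 CPM in that group. Fosl2 had 103, 107 and 98.8 CPM in wounded cortical libraries, above the wounded total range (0.21, SE 0.1, adjusted p = 0.159), and passed without wounded total replicate 1 (0.28, adjusted p = 0.0372). Over the 24 alternatives this log2 fold change of Fosl2 ran from -0.07 to 0.41, so its sign did not hold throughout.

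Fos and Atf3 lay on opposite sides in wounded cells. Fos was higher in cortical than in total libraries without overlap (0.77, SE 0.34, adjusted p = 0.139), and Atf3 was lower without overlap, 3.84 to 6.61 CPM against 6.93 to 9.85 CPM (-0.69, SE 0.26, adjusted p = 0.0881). Atf3 passed without wounded cortical replicate 3 (-0.95, adjusted p = 0.0433). Fosl1 (-0.61), Jun (0.07), Junb (-0.04), Jund (0.33), Maff (-0.51) and Mafk (0.22) overlapped between the fractions of wounded cells, with adjusted p from 0.231 to 0.903. With voom quality weights Maff passed as lower (-0.58, adjusted p = 0.0149). Higher without overlap were 3 of 10 members in each condition, against 17.1% of all genes in unwounded and 16.2% in wounded cells, and lower without overlap 1 of 10, against 19.1% and 12.9%. Directions between fractions depend on the scaling. Library size scaling moved the median of all genes by 0.19 in unwounded and 0.21 in wounded cells on the log2 scale, and the share of calls that were higher in the cortical fraction from 46.6% to 77.1% and from 48.7% to 80.9%. With it, Fos, Fosl2, Jund and Mafg passed in wounded cells. The signs of Fosl2 in unwounded and Mafg in wounded cells held under each scaling.

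Per length, the order of the members was led by Junb and Jund in all 4 groups. In unwounded total libraries Junb had 36 ± 3.35 FPKM (SD, n = 3) and Jund 26 ± 3.3, followed by Mafk (10.9 ± 1.05) and Mafg (10.3 ± 0.308), whose ranges overlapped. Fosl2 (7.32 ± 0.295) and Atf3 (4.99 ± 0.837) came next, and Fos (2.43), Fosl1 (2.33), Maff (2.21) and Jun (2.05) closed the order, each overlapping the next. In wounded total libraries Junb stood at 58.4 ± 7.47 and Jund at 25.6 ± 8.56 FPKM, and Maff had moved up to 11.2 ± 2.56, overlapping Mafk above it (11.6 ± 0.462) and Fosl2 below it (9.22 ± 0.76). In wounded cortical libraries Maff had 7.73 ± 2.37 FPKM, below the overlapping pair of Mafg (10.6 ± 0.218) and Fosl2 (10.5 ± 0.436). Fosl1 was last there at 0.695 ± 0.676 FPKM.

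Beside the promoters, some features of the transcripts that the selection did not use were read. The pentamer ATTTA, the letters of the AU-rich element, occurred 4 times in the 3′ UTR of each of Fos, Jun, Maff and Mafg. Fosl2 had it 8 times, Atf3 and Mafk 3 times each, Junb 2 times, and Fosl1 and Jund 1 time each. Per length this gives 4.91 per kb for Fos, 4.12 for Junb, 3.28 for Maff and 3.24 for Jun. The median over 11278 coding genes tested was 1.19 per kb. Atf3 has 2.53 per kb, Jund 1.88, Fosl2 1.72, Mafk 1.66 and Fosl1 1.57. For Mafg, with 4167 bases of 3′ UTR, it is 0.96 per kb. The coding sequences of Maff and Mafk (468 bases) and Mafg (486 bases) are short against a median of 1383 bases, and 8.72% of coding genes tested have one as short as that of Mafg or shorter. Lengths and counts of letters are from GENCODE M21 on GRCm38.

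The other bZIP genes gave a wider frame. Of the 39 bZIP genes tested, members included, 13 passed for wounding in the total fraction, 10 higher and 3 lower, where 15.6% of all genes passed, 8.39% higher and 7.2% lower. In the cortical fraction 4 passed, 1 higher and 3 lower, where 2.48% of all genes did. Of 7 tested AP-1 genes and related bZIP factors outside the members, Creb5 (1.28, SE 0.2, adjusted p = 4.21e-04) and Atf7 (0.73, SE 0.24, adjusted p = 0.0494) rose in the total fraction, and the list median was -0.1. Fosb, the remaining Fos gene, was at 0 to 1.92 CPM in all libraries and did not pass (-1.26, SE 1.12, adjusted p = 0.51). Batf had 0 counts in all 12 libraries. Of these 7, Creb5 (0.74, adjusted p = 0.0187, edgeR) and Creb1 (0.61, adjusted p = 0.00667) were higher in the cortical fraction of unwounded cells. Creb1, the factor known for binding the cAMP response element, was also higher there in wounded cells (0.53, adjusted p = 0.0153), and Creb5 was not (-0.15, adjusted p = 0.661).

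Of 8 tested genes of small Maf partners and their regulation and of large Mafs, Maf (1.34, SE 0.15, adjusted p = 3.03e-05), the large Maf protein c-Maf, and Nfe2l1 (0.33, SE 0.09, adjusted p = 0.0237), a CNC factor of proteasome genes, rose in the total fraction. Nfe2l2, which encodes NRF2, had 20.1 ± 3.33 CPM in unwounded and 17.3 ± 2.83 CPM in wounded total libraries, and did not pass. In unwounded cells Bach1, a repressor that pairs with small Mafs, was 2.03-fold higher in the cortical fraction (log2 fold change 1.02, SE 0.18, adjusted p = 0.00125, edgeR), with Nfe2l1 (0.73) and Nfe2l2 (0.53). Bach1 (0.57, adjusted p = 0.0373, edgeR) and Nfe2l1 (0.44, adjusted p = 0.00489) were also higher there in wounded cells, and Nfe2l2 did not pass (0.22, adjusted p = 0.431). Of 9 tested genes known as targets of small Maf and CNC dimers, Slc7a11, the cystine transporter, rose in the total fraction on wounding (0.54, adjusted p = 0.0137) and Txnrd1, a thioredoxin reductase, fell (-1.1, adjusted p = 4.10e-04). The list median was -0.25, against -0.03 over all genes.

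**Figure D4:**
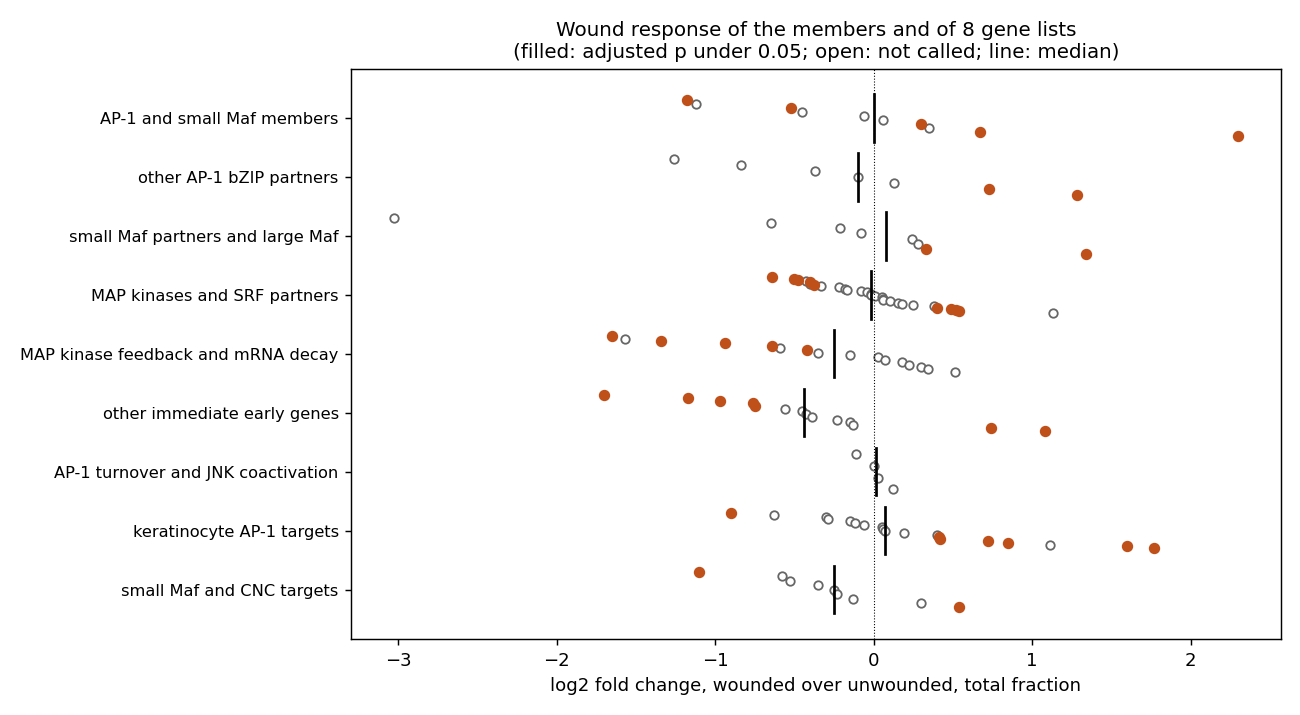
Log2 fold changes on wounding in the total fraction (horizontal axis) for the 10 members and 8 gene lists, 1 point per gene tested, filled where adjusted p was under 0.05, with a line at the median of each list. Feedback genes of the MAP kinases have 5 filled points, all below 0, and the keratinocyte AP-1 targets have 6 above and 1 below 0.

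Upstream of AP-1, 29 genes of the MAP kinase and serum response factor pathways were tested: 4 rose and 5 fell in the total fraction, with a median of -0.02. Of all genes tested, 8.39% rose and 7.2% fell there. The risers with the largest change were Map2k2 (0.54), Mapk3 (0.52), which encodes ERK1, and Map2k5 (0.49), and those that fell included Map2k1 (-0.64) and Mapk9 (-0.48). Of 16 genes that shut off MAP kinases or speed mRNA decay, 5 fell and 0 rose in the total fraction. The median of this list was -0.25, against -0.03 over all genes. Dusp1, the phosphatase of p38 and JNK, went from 8.43 ± 1.99 to 2.69 ± 0.217 CPM (-1.65, SE 0.34, adjusted p = 0.00407). Dusp6, the ERK phosphatase, went from 6.27 ± 1.2 to 2.47 ± 1.93 CPM (-1.34, SE 0.43, adjusted p = 0.0434), and Spred2, a Ras pathway inhibitor, from 32.4 ± 4.29 to 16.8 ± 0.594 CPM (-0.94, SE 0.15, adjusted p = 4.59e-04). Spred2 (-0.89) and Zfp36 (-0.53), which encodes the decay factor tristetraprolin, also fell in the cortical fraction.

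Of 14 other immediate early genes tested, 2 rose and 5 fell in the total fraction, with a median of -0.44, against -0.03 over all genes. The shares over all genes were 8.39% higher and 7.2% lower. Nr4a1, a nuclear receptor, fell 3.24-fold (-1.7, SE 0.46, adjusted p = 0.0186, edgeR), Arc 2.24-fold (-1.17, SE 0.17) and Egr1, a zinc finger factor, 1.96-fold (-0.97, SE 0.24). Ctgf (1.08, SE 0.24), a matrix-associated growth regulator, and Ier3 (0.74, SE 0.16) rose. Fos, with -1.18, lay among those that fell. The 4 tested genes of AP-1 protein turnover and JNK coactivation had adjusted p of 0.0705 or more in all 5 comparisons (edgeR). Their log2 fold changes on wounding in the total fraction were -0.11 for Cop1, 0 for Cops5, 0.03 for Itch and 0.12 for Fbxw7.

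Of 19 tested genes known as AP-1 targets in keratinocytes, 6 rose and 1 fell in the total fraction, with a median of 0.07. Over all genes, 8.39% rose and 7.2% fell, and the median was -0.03. Krt16, a keratin of activated epidermis, went from 169 ± 7.82 to 578 ± 91 CPM (1.77, SE 0.12, adjusted p = 2.37e-07), Sprr1a, a cornified envelope protein, from 6.31 ± 1.12 to 19.2 ± 1.44 CPM (1.6, SE 0.24, adjusted p = 3.28e-04), and Krt6a from 1490 ± 178 to 2700 ± 241 CPM (0.85, SE 0.11). Ccnd1, which encodes cyclin D1, fell from 30.9 ± 2.96 to 16.6 ± 0.432 CPM (-0.9, SE 0.14). In the cortical fraction Krt16 (0.88), Sprr1a (1.05) and Krt6a (0.62) rose. The metalloprotease genes Mmp1a, Mmp1b and Mmp9 had 0 counts in all libraries.

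The genes whose profile over the 12 libraries lay closest to that of a member were found among 8856 coding genes, by the root mean square difference between centred log2 CPM. Sprr1a was closest to Maff (0.4), ahead of Nr1d1 and 2610528A11Rik (both 0.43), where the profile of Maff itself had an SD of 1.06. Closest to Junb (SD 0.32) were Atg7 (0.09), Gtf2i and Cpe (both 0.1), and closest to Mafg (SD 0.3) were Csnk1g1, Pif1 and Tmem186 (all 0.11). For Fosl2 (SD 0.22) they were Rtcb and Hipk1 (both 0.06), and for Fos (SD 0.55) Mtf2 and Rad1 (both 0.24) and Dmpk (0.25). For Fosl1, the member with the widest profile (SD 1.32), the closest gene, Polk, differed by 0.71. These differences were not scaled to the SD of a profile, so they cannot be ranked between members. No other member was among the closest 3 genes of any member. Fos and Fosl1, with mean counts under 100, were not among the genes searched and could not appear there.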

How the data were processed

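Per the labels' protocols, poly-A RNA of both fractions was made into non-directional libraries. Per the submitters' processing notes the tools were CASAVA and HISAT2 and the build mm10, while the counting tool, annotation release and versions are not given in the sources used here. The authors deposited raw fragment counts and FPKM values per gene, in units named per the file headers. The files held 0 further columns of per-sample values.

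Groups came from the sample titles. Counts were fitted with edgeR 4.0.16 in R 4.3.3 (filterByExpr, TMM factors of 0.831 to 1.1, 1 mean per group over all 12 libraries) and tested by the quasi-likelihood F test, two-sided, with Benjamini-Hochberg adjustment over 13571 genes at 0.05. SE stands for the standard error of a log2 fold change. Alternatives used limma 3.58.1 (limma-trend on log2 FPKM plus 1 or 0.1, voom) and DESeq2 1.42.0. Other alternatives were other scalings and filters, only the groups compared, the replicate number as a block, removal of a loess trend (span 0.5) on gene length, and each library left out. Library depth sets the precision: the least counted members are Fosl1 and Fos, and intervals cover counting error only. Every pair of libraries in a group differed by more than sampling noise. Figures were drawn with matplotlib 3.10.9.

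Values of all 10 members are given in each of the 5 comparisons. From each gene list up to 3 called genes per direction with the largest change were named, with genes at 0 counts, and for like profiles the 3 closest coding genes whose mean count was 100 or more. Nfe2l2, Fosb, Prdx2, Sirt7, Ccdc85b, Tmem184a, Junos and the 4 turnover genes are named outside that rule, chosen after their values were seen. The members and gene lists were chosen with earlier results of these data known. A few genes that this rule names are not reported here.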

Additional observations from a re-analysis of the deposited data

How the results depend on the processing

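Of the 8 results called for a member, 4 were called in every alternative (Maff, Junb and Mafg on wounding in the total fraction, Mafg between fractions of wounded cells), and all 8 had 1 sign throughout. Of the 42 not called, 11 passed in at least 1 alternative. Members called on wounding in the total fraction fell from 5 to 3 with only the groups compared and ranged from 3 to 5 with a library left out (1154 to 3536 of all genes); voom called 6, with Fosl1 and Atf3 gained and Fos lost. In the cortical fraction they were 2 (Junb and Maff) with DESeq2, voom, no filter, a filter at a mean count of 50 or only the groups compared, 0 with log2 of FPKM plus 0.1, and 0 to 3 with a library left out (110 to 1291 of all genes). Between fractions of unwounded cells they were 2 with voom (Fosl2, Atf3), 0 with the length trend removed, with or without the replicate block, and 1 with any library left out (976 to 3171 of all genes). In wounded cells they were 4 with library size scaling, 3 with voom (Fosl2, Maff, Mafg), 2 with the length trend removed, with or without the block, and 1 to 2 with a library left out (1113 to 3485 of all genes). For the interaction voom called 1 (Mafg), and 0 were called with any library left out (4 to 427 of all genes); each highest count over all genes came without wounded total replicate 1.

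Over all genes, where the count moved by over 1.5 times, the cortical wound response called 337 genes in the main analysis, 199 with library size scaling (108 higher), 736 with DESeq2, 1316 with voom, 559 without a filter and 1377 with only the groups compared. The interaction called 17, and 11, 10 (FPKM plus 1), 10 (FPKM plus 0.1), 72 (DESeq2), 855 (voom), 138 (no filter) and 30 (length trend). Voom called 5206 on wounding in the total fraction and 3708 and 4441 between fractions of unwounded and wounded cells, and only the groups compared gave 1117, 2979 and 938. Calls on wounding in the total fraction were 53.8% higher, 39.1% with library size scaling and 74.2% with the length trend removed, and those between fractions of wounded cells 48.7% and 25% with the trend removed. The cause of these differences was not tested.

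After each group's mean was taken out, log2 CPM of same-numbered libraries correlated from -0.0508 to 0.219 (mean 0.0117, 10386 genes). The highest values, 0.219 and 0.15, were between unwounded and wounded total libraries of replicates 2 and 1. With correlations this low, the numbers were not taken to pair libraries in the main fit. A library lay closest to its own number in 4, 0, 1 and 0 of 6 libraries in the first 4 comparisons. With the replicate block, members called were 4, 1, 1, 1 and 0 (Fosl2 lost, adjusted p = 0.0584), and over all genes 2038, 276, 1857, 1985 and 10. The block with the length trend removed gave 1365 calls between fractions of wounded cells and 30 for the interaction. Fosl1 had no value with the filter at 50, and only the groups compared gives none for the interaction. The depth of Fosl1, 3 to 82 counts per library, limits what can be said of it.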
